A study of Aedes albopictus with 6 samples.

Results

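Membrane transporters are proteins that carry ions, sugars, amino acids, metals and other small molecules across cell membranes. Exchangers and cotransporters couple the movement of one solute to that of another, and pumps use ATP to move solutes against their gradients. In insects these proteins feed trehalose, the main blood sugar, into the hemolymph, take up dietary amino acids in the gut and drive urine formation in the Malpighian tubules, the excretory organs. Circular RNAs (circRNAs) are closed transcripts formed when the end of a downstream exon is joined to the start of an upstream one, a step called back-splicing, and each is recognised by the reads that cross its junction.

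The host genes of circRNAs that code for transporters and exchangers were described in the Asian tiger mosquito, Aedes albopictus. A host gene was included when its product name held the word transporter, solute carrier, cotransporter, exchanger or transporting ATPase, and none of the terms for mitochondrial proteins, resistance proteins or channels. This gave 166 of the 4166 host genes, with 319 of the 8690 circRNAs and 5847 junction reads. Names alone decided membership. The set therefore also holds a few proteins that do not carry solutes, such as an ecto-NOX disulfide-thiol exchanger, and solute carrier family 25 members, which belong to the mitochondrial carrier family.

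Whole bodies of virgin females and virgin males of the Foshan laboratory strain, 2 days old, were compared, with 3 libraries per sex and each library made from a pool of 30 mosquitoes. Both sexes were unmated, and the labels name no treatment, transgene or mutation in either group. In pooled whole bodies, fewer cells of a type and less RNA per cell cannot be told apart. The female libraries held 16792, 17197 and 13322 junction reads, and the male libraries 21624, 24852 and 27257. Levels below are junction reads per 10000 reads of the library after scaling by TMM, a method that balances library composition. They are given as mean ± SD over 3 libraries, and fold changes are log2 values, female over male. Word lists of tissue markers were read in the same way. Malpighian tubule markers summed to 1.08 to 1.27% of junction reads in females and 1.68 to 1.80% in males. The 3 diuretic hormone receptor genes of that list carried the difference, with a summed level of 79.0 ± 13.96 reads per 10000 in females and 145.9 ± 6.67 in males. The other 11 genes summed to 45.2 ± 11.1 in females and 35.3 ± 6.22 in males, and the sexes overlapped. Gut markers summed to 0.120 to 0.220% in females and 0.0110 to 0.0604% in males. Of the 10 gut markers, the trypsin-1 gene LOC109420035 held nearly all of the female reads, and the other 9 summed to 2.13 ± 0.513 reads per 10000 in females and 3.94 ± 2.83 in males. Neuron markers summed to 0.150 to 0.304% in females and 0.308 to 0.358% in males. Muscle markers summed to 0.308 to 0.355% in females and 0.374 to 0.484% in males. Of the 26 muscle markers, 12 had no read in females and 3 had none in males, and both testis markers together gave 1 read in females and 5 in males. Fat body markers summed to 0.0814 to 0.105% in females and 0.0770 to 0.139% in males. Ovary and germ line markers summed to 0.158 to 0.256% in females and 0.0555 to 0.110% in males.

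Transporter genes gave about the same share of the circular RNA pool in both sexes. Their junction reads made up 4.48%, 5.02% and 4.74% of the reads in the female libraries, against 4.74%, 4.98% and 4.91% in the male libraries. The means were 4.75% ± 0.273 in females and 4.87% ± 0.125 in males (SD, n = 3 each). The difference was smaller than the female SD and close to the male SD, and the libraries overlapped. Some circRNAs are possible copies, equal in span and spliced length to a circRNA of a different host gene. Without these the shares were 4.998% ± 0.289 in females and 5.31% ± 0.111 in males, a gap above either SD. Female replicate 2 (5.247%) still lay above male replicate 1 (5.242%). The female libraries listed 108, 132 and 120 transporter circRNAs and the male libraries 154, 174 and 186. The male libraries were also the deeper ones.

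Sugar transporters were the most abundant class. Their 19 host genes gave 1.21% ± 0.122 of all junction reads in females and 1.14% ± 0.0252 in males. Of these genes, 15 were named as facilitated trehalose transporters (Tret1), which carry trehalose across membranes down its gradient and are known from the fat body of the midge Polypedilum vanderplanki. The 28 ion exchangers and cotransporters gave 0.636% ± 0.149 in females and 0.698% ± 0.108 in males, and the 10 ion pumps gave 0.295% ± 0.141 in females and 0.245% ± 0.0171 in males. The 20 amino acid and peptide transporters gave 0.341% ± 0.140 in females and 0.337% ± 0.0544 in males. The sexes overlapped in these classes and in every other class but one. The exception was the class of 2 ATP-binding cassette (ABC) host genes that the name rule let in. They gave 0.0357%, 0.128% and 0.150% in the female libraries and 0.338%, 0.314% and 0.224% in the male libraries. All 3 male libraries lay above all 3 female libraries in that class.

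**Figure D1:**
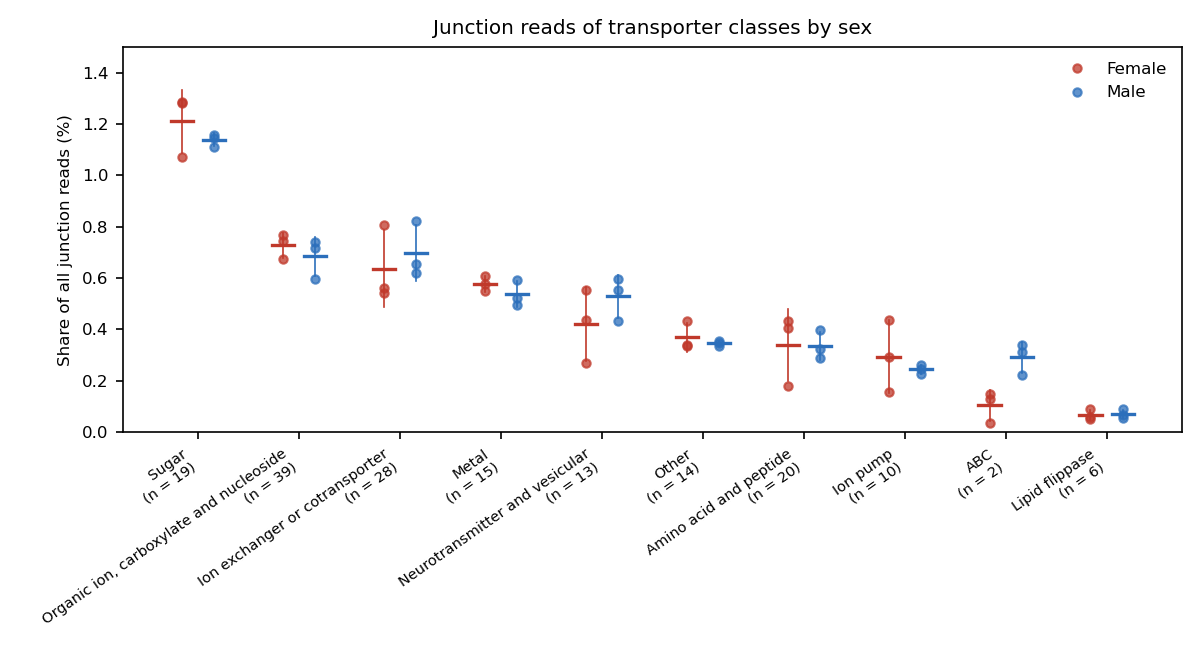
Share of all junction reads (%) taken by each transporter class, with the number of host genes under each name; points are libraries (females left, males right), horizontal bars are means and vertical lines ± 1 SD (n = 3 each). Sugar transporters stand highest in both sexes at 1.21% in females and 1.14% in males, and the sexes are apart in the ABC class, at 0.105% in females and 0.292% in males.

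Reads were concentrated in few genes. The 10 host genes with the most reads held 49.6% of the transporter reads, the median gene had 9 reads, and 58 genes had 5 or fewer. After the filter on low counts, 38 transporter genes could be tested for a sex difference. They held 79.9% of the transporter reads. The other 128 genes had 38 reads or fewer over all 6 libraries. The filter passes a gene through the sex in which it is high, so the counts below describe the tested genes and not the whole set.

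Between the sexes, 3 of the 38 tested transporter genes differed (edgeR, quasi-likelihood F test, p adjusted by the Benjamini-Hochberg method over all 870 host genes tested). Across all 870, 42 differed, or 4.83% (22 higher in females, 2.53%, and 20 higher in males, 2.3%). A Tret1-like gene was higher in females, and a sodium/hydrogen exchanger 9B2 gene and an ABC transporter G family member 23-like gene were higher in males. The median log2 fold change was -0.05 over the 38 transporter genes and -0.05 over all host genes tested. Without male replicate 2, no transporter gene passed in either direction, and over all host genes 7 passed as higher in females and 5 as higher in males. Without male replicate 1, 1 transporter gene was higher in males, and without female replicate 3, 2 were higher in females. The counts over all host genes in these settings are not given here, so these shifts are not read as particular to transporters. The libraries of the sexes did not overlap for 8 of the 38 genes, 4 with females above and 4 with males above. The same held for 24.8% of all host genes tested, 11.7% with females above and 13.1% with males above.

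**Figure D2:**
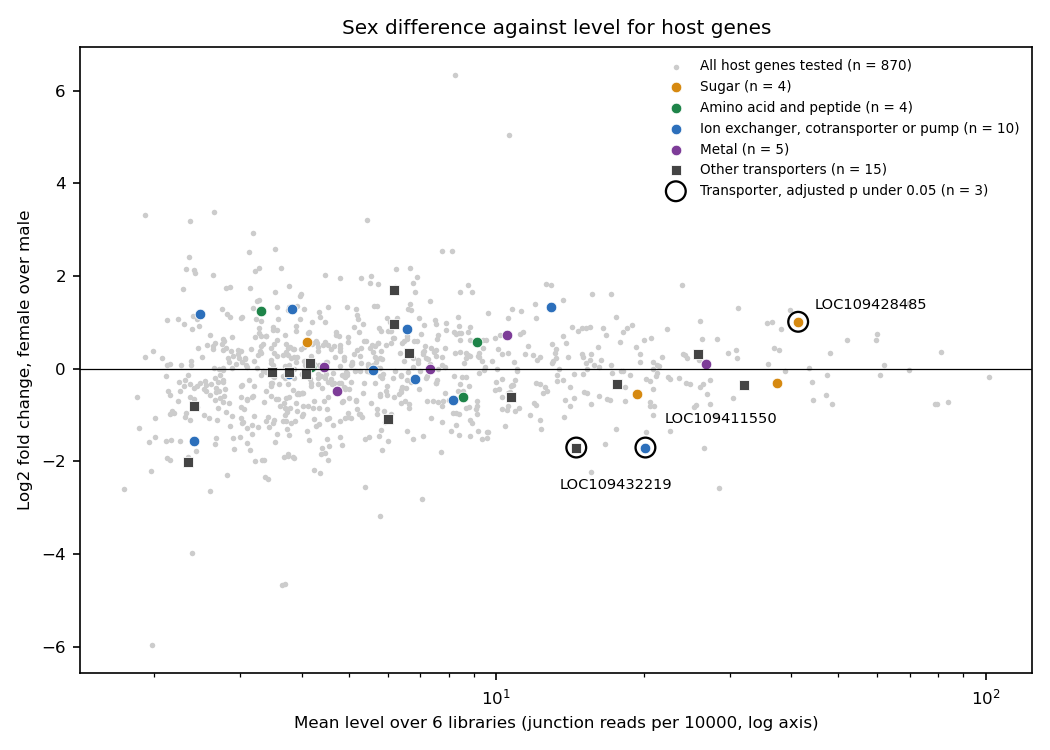
Log2 fold change, female over male, against the mean level over 6 libraries (junction reads per 10000, log axis) for the 870 host genes tested in grey, with the 38 transporter genes coloured by class and the 3 that passed the test ringed. LOC109428485 lies above 0, at 1.01, and LOC109411550 and LOC109432219 lie below it, both at -1.70.

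Trehalose transporters held both the most abundant transporter circRNAs and one of the sex differences. The Tret1-like gene LOC109428485 had 66.3, 45.7 and 54.0 reads per 10000 in the female libraries, against 30.9, 20.3 and 31.1 in the male libraries. Every female library lay above every male library, and the log2 fold change was 1.01 (SE 0.23, adjusted p = 0.0068, edgeR). The raw counts were 107, 77 and 70 reads in females and 64, 49 and 80 in males, so before scaling male replicate 3 lay above female replicates 2 and 3. It did not pass without male replicate 2 (log2 fold change 0.83, adjusted p = 0.091) or without the filter on low counts (0.80, adjusted p = 0.089). The next gene in level, the Tret1-like gene LOC115256489, had 29.1, 32.7 and 38.6 reads per 10000 in females and 42.5, 42.3 and 39.6 in males. Here every male library lay above every female library, but the log2 fold change of -0.31 (SE 0.22) did not pass (adjusted p = 0.49). The third tested Tret1-like gene, LOC109433068, had 6.82, 4.16 and 3.86 in females and 0.967, 4.15 and 4.66 in males (adjusted p = 0.74).

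These leading Tret1-like genes resembled each other in their circRNAs. Both lie on contig NW_021838798.1, on the minus strand, and the main circRNA of each was an exon-exon circle of 335 bases after splicing. That of LOC109428485 spans positions 63150421 to 63150839 and held 93.7% of the gene's reads, and that of LOC115256489 spans 64058241 to 64058661 and held 88.5%. The second circRNA of each shares a splice site with the first and is 474 bases long in LOC109428485 and 477 bases in LOC115256489. The ratio of the 335-base circles, LOC109428485 over LOC115256489, was 2.03, 1.51 and 1.62 in the female libraries and 0.819, 0.503 and 0.858 in the male libraries. It was above 1 in all female libraries and below 1 in all male libraries. The circle of LOC109428485 was itself higher in every female library, and that of LOC115256489 in every male library. Ratios that do not overlap follow from these levels and are not a separate result. The log2 ratio differed by 1.27 between the sexes (exact permutation test, two-sided, p = 0.10, the smallest that 3 against 3 libraries allow, and 0.50 after Benjamini-Hochberg adjustment over 5 pairs).

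How reads divide between such similar genes bears on the Tret1 result. Added together, the 335-base circles of LOC109428485 and LOC115256489 reached 78.2 ± 7.19 reads per 10000 in females and 60.1 ± 5.32 in males. When all 13 genes with the product name facilitated trehalose transporter Tret1 or Tret1-like were merged before the fit, the level was 105 ± 10.8 in females and 84.0 ± 7.10 in males. The log2 fold change was then 0.32 (SE 0.16) and did not pass (adjusted p = 0.26, edgeR). Whether reads were assigned to the right copy was not tested. The remaining 12 Tret1 genes besides those tested had 2 to 34 reads each. Among them, the Tret1-2 homolog LOC109412654 had 0, 1 and 0 reads in the female libraries and 2, 5 and 24 in the male libraries, with most of its reads in male replicate 3.

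**Figure D3:**
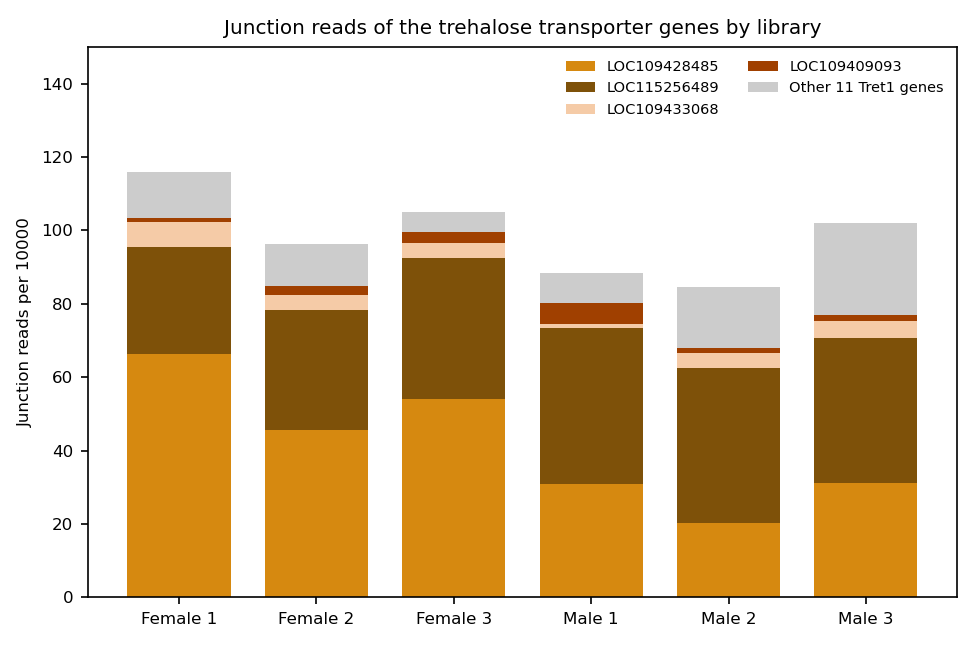
Junction reads per 10000 of the 15 trehalose transporter genes in each library (females left, males right), stacked by gene. LOC109428485 is the largest single part of the column in females, at 45.7 to 66.3, and LOC115256489 in males, at 39.6 to 42.5.

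The other sugar carriers showed no called difference. The proton-associated sugar transporter A-like gene LOC109426928, whose mammalian counterpart takes up glucose with protons, had 9.92, 12.5 and 25.5 reads per 10000 in females and 23.7, 28.2 and 16.7 in males. The sexes overlapped (log2 fold change -0.54, adjusted p = 0.42). Genes of trehalose and glycogen metabolism were read beside the carriers. Of 12 such host genes, 4 were tested: a trehalase, a pair of hexokinases and a phosphofructokinase. None of the 4 passed, and their median log2 fold change was 0.35. Of 14 insulin and TOR signalling genes, which adjust growth and metabolism to nutrition, 5 were tested and 1 passed. This was ribosomal protein S6 kinase beta-2 (LOC109418942), a kinase that acts downstream of TOR. It had 15.5, 16.6 and 28.6 reads per 10000 in females and 1.93, 9.95 and 5.05 in males (edgeR, adjusted p = 0.013, log2 fold change 1.80, SE 0.46). The other 4, an insulin-like receptor, a pair of forkhead box protein O-like genes and an S6 kinase alpha-5-like gene, did not pass.

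Among ion exchangers, the members of the sodium/proton exchanger group lay on opposite sides. The sodium/hydrogen exchanger 9B2 gene LOC109411550 codes for an antiporter of the NHA type, which moves sodium against protons. It had 1.86, 14.3 and 12.3 reads per 10000 in the female libraries and 35.8, 32.7 and 24.1 in the male libraries. Every male library was above every female library, and female replicate 1 was far below the other females, with 3 reads. The log2 fold change was -1.70 (SE 0.39, adjusted p = 0.0068, edgeR). It did not pass without male replicate 2 (-1.66, adjusted p = 0.085) or in DESeq2 (-1.70, adjusted p = 0.14). Its main circRNA, of 491 bases at positions 824250 to 824872 of contig NW_021838721.1 on the minus strand, held 92.6% of the reads and had 1.84, 13.4 and 11.7 reads per 10000 in females and 30.5, 28.2 and 22.1 in males. A second circle of 1552 bases, which shares a splice site with it, gave 1 read in females and 18 in males. A further gene of that name, LOC109423221, had 6 reads, all in males.

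The sodium/hydrogen exchanger 3 gene LOC109412368, an exchanger known from the Malpighian tubules of the mosquito Aedes aegypti, had 17.97, 26.1 and 11.6 reads per 10000 in females and 4.35, 9.53 and 8.15 in males. Every female library was above every male library, but the log2 fold change of 1.33 (SE 0.41) did not pass (adjusted p = 0.061, edgeR). It passed without female replicate 3 (adjusted p = 0.033), in DESeq2 (0.039), with a filter at a minimum count of 10 (0.027) and without possible copies (0.033). The gene model is flagged as low quality in the table. Its 8 circRNAs were spread along the gene, and the most abundant, of 456 bases, held 56.7% of the reads. That circle had 21, 24 and 4 reads in the female libraries and 2, 12 and 17 in the male libraries, so the sexes overlapped for it. A circle of 1222 bases that begins at the same site gave 4, 9 and 1 reads in females and 1, 1 and 0 in males.

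The potassium-chloride cotransporter named solute carrier family 12 member 4 (LOC109425809) had 6.20, 3.56 and 9.26 reads per 10000 in females and 10.6, 11.6 and 7.77 in males. Its log2 fold change was -0.68 (adjusted p = 0.52). It gave 11 circRNAs, the second most among transporters. The main one, of 338 bases, had 5, 0 and 5 reads in the female libraries and 12, 22 and 13 in the male libraries. After scaling, all male libraries were above all female libraries for this circle (log2 fold change -1.53, SE 0.73, adjusted p = 0.22 over 738 circRNAs). The sodium-dependent phosphate transporter 2 gene LOC109429232 had 0.620, 11.9 and 3.86 in females and 1.45, 2.07 and 3.11 in males, with a single high female library. Host genes of 14-3-3 proteins and ankyrins, which bind and anchor ion transporters, were tested in 4 of 5 cases and none passed (median log2 fold change 0.52).

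Among ion pumps, 4 of 10 genes were tested and none passed. The sodium/potassium pump, which exports sodium and imports potassium, was represented by a pair of catalytic alpha subunit genes on contig NW_021838543.1. LOC109621302 had 3.10, 12.5 and 3.09 reads per 10000 in females and 8.22, 6.22 and 7.77 in males, and LOC115269307 had 4.96, 8.91 and 11.6 in females and 6.28, 4.15 and 3.49 in males. The sexes overlapped for both genes (adjusted p = 0.90 for LOC109621302 and 0.45 for LOC115269307). The beta-2-like subunit gene LOC115258653 had 3.61 ± 3.28 in females and 3.92 ± 1.04 in males. The remaining beta-2 genes fell below the filter and were not tested. LOC109401376 had 3.77 ± 2.92 in females and 0.964 ± 0.418 in males. LOC109432900 had 2.12 ± 0.749 in females and 0.129 ± 0.224 in males. For both, every female library lay above every male library. LOC109409302 had 0.455 ± 0.404 in females and 1.29 ± 0.147 in males, with every male library above. LOC109419521 had 7 reads, all in males. The plasma membrane calcium pump LOC109425852, which exports calcium, had 5.59 ± 2.01 in females and 5.63 ± 1.95 in males. Of 12 genes for the V-type proton ATPase, the pump that energises insect epithelia, and for carbonic anhydrases, 2 were tested and neither passed (log2 fold changes 0.07 and 0.93).

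**Figure D4:**
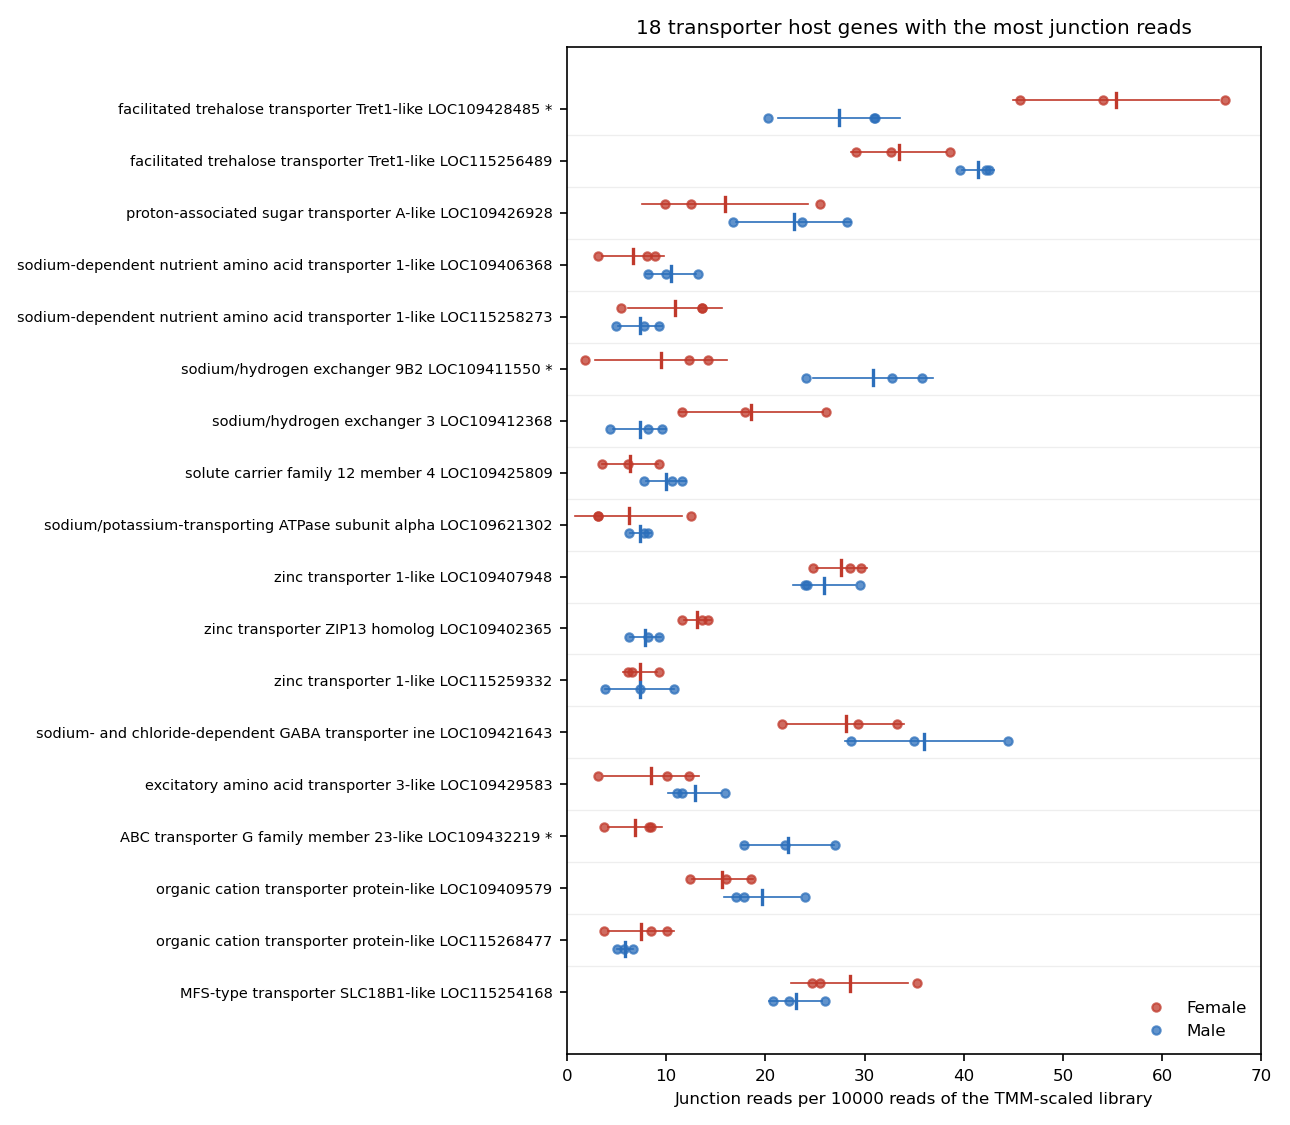
Levels (junction reads per 10000 reads of the TMM-scaled library) of the 18 transporter host genes with the most junction reads, ordered by class; points are libraries (females above, males below), vertical bars are means and horizontal lines ± 1 SD (n = 3 each), and asterisks mark adjusted p under 0.05. LOC109428485 spans 45.7 to 66.3 in females and 20.3 to 31.1 in males, while LOC109407948 spans 24.8 to 29.7 in females and 24.0 to 29.5 in males.

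ABC transporters were the smallest class under the name rule and the one with the lowest median log2 fold change, -1.39 over its 2 genes. An ABC protein named as a resistance protein, or without a word of the rule, would not be in the class. The values thus describe these 2 genes and not the ABC family. LOC109432219 had 186 reads and LOC109425437 had 74. ABCG proteins are ATP-driven half-transporters, the family of the Drosophila eye pigment transporter white. The ABCG member 23-like gene LOC109432219 had 3.72, 8.31 and 8.49 reads per 10000 in the female libraries and 27.1, 22.0 and 17.9 in the male libraries. Every male library was above every female library, and the log2 fold change was -1.70 (SE 0.39, adjusted p = 0.0068, edgeR). It did not pass without male replicate 1 (-1.54, adjusted p = 0.083) or without male replicate 2 (-1.71, adjusted p = 0.075). The second gene of that name, LOC109425437, had 0, 4.75 and 6.95 in females and 8.22, 10.4 and 5.83 in males, and did not pass (log2 fold change -1.09, adjusted p = 0.42). Merged into one, the ABCG23-like genes had 10.7 ± 6.19 in females and 30.4 ± 6.02 in males (edgeR log2 fold change -1.52, SE 0.36, adjusted p = 0.0092).

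The main circles of the ABCG23-like genes were alike. That of LOC109432219 spans 1328 bases, 16932343 to 16933671 on the plus strand of contig NW_021837711.1, is 895 bases long after splicing and held 94.6% of the gene's reads. That of LOC109425437 spans 1327 bases at 13818741 to 13820068 of the same contig, is 891 bases long and held 94.6%. Their levels were 6.64 ± 2.56 in females and 19.99 ± 5.24 in males for LOC109432219, and 3.56 ± 3.33 in females and 7.43 ± 2.88 in males for LOC109425437.

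The Malpighian tubule markers did not share one direction. Of 14 marker host genes, 6 were tested, 3 with a log2 fold change below 0 and 3 above it, and the 2 that passed were both higher in males. The diuretic hormone receptor LOC109419645, which receives the signal for urine secretion, averaged 63.4 ± 13.2 in females and 104 ± 10.8 in males (edgeR, log2 fold change -0.72, adjusted p = 0.012). The diuretic hormone receptor-like gene LOC109420199 averaged 11.2 ± 4.36 in females and 29.4 ± 3.68 in males (adjusted p = 0.0075, log2 fold change -1.37). The third receptor gene, LOC109409995, averaged 4.46 ± 1.21 in females and 12.3 ± 2.63 in males and did not pass (adjusted p = 0.098 in edgeR, log2 fold change -1.44). The remaining 3 had log2 fold changes above 0 and did not pass. The aquaporin AQPAe.a gene LOC109412019, a water channel, had 5.96 ± 2.47 in females and 2.98 ± 0.307 in males (edgeR log2 fold change 1.00, adjusted p = 0.46), and every female library was above every male library. Of the V-type proton ATPase genes, which also stand in the proton pump list, the subunit C-like gene LOC109406052 had 11.04 ± 4.02 in females and 5.73 ± 3.62 in males (edgeR log2 fold change 0.93, adjusted p = 0.38). The subunit C gene LOC109409682 had 22.1 ± 13.7 in females and 20.6 ± 1.67 in males (edgeR log2 fold change 0.07, adjusted p = 0.95). Of the whole list, 2 of the 14 had no read in females and 1 had none in males. The part of tissue content in the differences of LOC109411550 and LOC109432219 was not tested. Of 10 gut markers, 1 was tested and passed, the trypsin-1 gene LOC109420035. It averaged 16.4 ± 4.99 in females and 0.129 ± 0.224 in males (adjusted p = 3.49e-06 in edgeR, log2 fold change 6.33). Its part in the Tret1 difference was not tested either.

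Amino acid transporters showed no called difference among the 4 of 20 tested. A pair of sodium-dependent nutrient amino acid transporter 1-like genes, which take up dietary amino acids with sodium, lie on contig NW_021838976.1. The main circle of each was 840 bases long after splicing, from spans of 8221 bases in LOC109406368 and 7105 in LOC115258273. LOC109406368 had 6.68 ± 3.14 reads per 10000 in females and 10.5 ± 2.53 in males (adjusted p = 0.55), and LOC115258273 had 10.9 ± 4.76 in females and 7.34 ± 2.20 in males (adjusted p = 0.57). The log2 fold changes thus had opposite signs, -0.62 and 0.58. A pair of genes for pathetic, a proton-coupled amino acid transporter that serves growth in Drosophila, had circles of equal spliced length, 1167 bases. Another gene of that name, LOC115258909, also had a circle of this length, with 6 reads. LOC109398702 had 6.20, 7.72 and 0 in females and 2.42, 0.415 and 3.11 in males, and LOC109404843 had 4.34, 5.94 and 2.32 in females and 2.42, 5.39 and 4.66 in males. Neither passed.

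Neurotransmitter transporters were led by a gene with the product name GABA transporter ine (inebriated), whose solute was not tested here. Ine is a member of the sodium- and chloride-dependent family that in Drosophila affects neuronal excitability and water balance. LOC109421643 had 21.7, 33.3 and 29.3 reads per 10000 in females and 44.5, 28.6 and 34.9 in males, and the sexes overlapped (log2 fold change -0.35, SE 0.25, adjusted p = 0.49). Its circles of 830, 857 and 321 bases held 40.8%, 31.1% and 18.9% of its reads. The excitatory amino acid transporter 3-like gene LOC109429583, a glutamate uptake carrier, had 8.51 ± 4.82 in females and 12.9 ± 2.64 in males (adjusted p = 0.52). The dopamine transporter LOC109429040 had 0, 0 and 0 reads in the female libraries and 3, 2 and 9 in the male libraries. Set against 3 reads over the female group, the limit that a count of 0 allows, the male level was 3.04-fold higher. That figure leaves out the error of the male count and the spread between pools, and the gene was not tested. The beta-alanine transporter LOC109400103 had 9 reads in all.

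None of the 5 metal transporter genes tested, of 15, passed. Zinc transporter 1, which moves zinc out of the cytosol, had 3 tested genes. LOC109407948 had 27.7 ± 2.56 reads per 10000 in females and 25.9 ± 3.12 in males, LOC115259332 had 7.33 ± 1.71 in females and 7.34 ± 3.46 in males, and LOC109403644 had 3.92 ± 0.391 in females and 5.53 ± 1.95 in males. For LOC109407948, the gene with the most reads of the class, the log2 fold change of 0.09 had an SE of 0.26 and turned to -0.10 without the filter. The ZIP13 homolog LOC109402365, which in Drosophila carries iron into the secretory pathway, had 13.6, 14.3 and 11.6 in females and 8.22, 6.22 and 9.32 in males. All female libraries were above all male libraries, but the log2 fold change of 0.73 (SE 0.43) did not pass (adjusted p = 0.38). Its reads came from a single circle of 482 bases.

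Zinc transporter 2 (LOC109407688) gave 7 circles from 3 acceptor and 3 donor sites. The gene had 0, 2.97 and 10.8 reads per 10000 in females and 5.32, 3.73 and 3.88 in males. A circle of 403 bases had 0 reads in every female library and 5, 3 and 6 reads in the male libraries. A circle of 396 bases had 0, 3 and 7 reads in females and 0 in every male library. Neither circle had enough reads to be tested, and both were named after their values were seen. Circles of 403 bases at the zinc transporter 2-like genes LOC109420639 and LOC115255085, on the same contig, had 3 and 4 reads, all in males.

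Carriers of organic ions, carboxylates and nucleosides formed the largest class by name, with 39 genes, of which 7 were tested and none passed. The monocarboxylate transporter 12-like gene LOC109423515, of the family that moves lactate, pyruvate and related acids, had 9.30, 13.7 and 5.40 reads per 10000 in females and 4.35, 2.90 and 1.55 in males. Every female library was above every male library, but the log2 fold change of 1.70 (SE 0.62) did not pass (adjusted p = 0.11). Tested as a circRNA, its single circle of 542 bases missed the threshold (edgeR, adjusted p = 0.064) and passed without female replicate 3 (0.042) and with a minimum count of 10 (0.038). A second gene of the same name, LOC109430200, had 0, 4.16 and 6.17 reads per 10000 in females and 2.90, 3.73 and 3.88 in males (edgeR log2 fold change -0.06, adjusted p = 0.98). With both genes taken as one, the level was 12.9 ± 4.41 in females and 6.44 ± 0.922 in males (edgeR log2 fold change 1.01, SE 0.47, adjusted p = 0.22). The monocarboxylate transporter 14 gene LOC109411624 had 0.620, 0.594 and 1.54 in females and 3.38, 2.90 and 5.05 in males (edgeR log2 fold change -2.02, SE 1.04, adjusted p = 0.30). The transporter 14-like genes LOC115261414 and LOC115261436 gave circles of the same lengths, 972 and 1096 bases, and were not tested. LOC115261414 had 1.52 ± 0.272 in females and 1.64 ± 1.04 in males. LOC115261436 had 1.69 ± 1.88 in females and 1.70 ± 2.3 in males. How reads divide among these genes was not tested. The organic cation transporter gene LOC109409579 had 15.6 ± 3.08 in females and 19.7 ± 3.81 in males, LOC115268477 had 7.43 ± 3.32 in females and 5.83 ± 0.793 in males, and LOC109425509 had 8.16 ± 3.73 in females and 4.17 ± 1.13 in males. The folate transporter 1-like gene LOC115256980 had no read in females and 8, 1 and 4 reads in the male libraries. Its male level was 2.82-fold that of 3 reads over the female group, with the error of the male count left out. The gene was not tested.

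Among the remaining carriers, the SLC18B1-like gene LOC115254168, whose mammalian counterpart loads polyamines into vesicles, had 28.5 ± 5.91 reads per 10000 in females and 23.1 ± 2.68 in males (adjusted p = 0.60), all from 1 circle of 907 bases. The cholesterol transporter NPC1 (LOC109621239), which releases cholesterol from lysosomes, had 1.70 ± 2.31 in females and 3.13 ± 2.08 in males, and a second NPC1 gene, LOC109427594, had 12 reads in all. The solute carrier family 35 member F5 gene LOC109424173 had 3.90 ± 0.827 in females and 4.26 ± 1.39 in males. The flippase IA gene LOC115257360, of the ATPases that turn phospholipids to the inner leaflet, had 4.35 ± 2.26 in females and 3.97 ± 1.62 in males. The other 3 flippases named by reads, LOC109411329, LOC109409005 and LOC109401632, had 18, 7 and 5 reads. The solute carrier family 46 member 3-like gene LOC115257486 had no read in females and 6, 2 and 4 reads in the male libraries. Its male level was 2.60-fold that of 3 reads over the female group, with the error of the male count left out. The gene was not tested.

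Reads in one sex only were found for 17 transporter genes in females and 41 in males, whose libraries were deeper. The share of such genes over all host genes is not given here, so these counts are not read as particular to transporters. The female genes had at most 4 reads, and 16 of the 17 had them in a single library. LOC109402030, an amino acid transporter of the b(0,+) type, LOC109414066, a sulfate anion transporter, and LOC115253790, an organic cation transporter-like gene, had 4 reads each. The male genes had at most 14 reads, and 6 of the 41 had reads in all 3 male libraries.

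At the level of single circRNAs, 34 transporter circRNAs were tested and 3 passed (edgeR, adjusted over 738 circRNAs), 1 higher in females and 2 in males. Over all 738, 6.64% passed, 3.79% higher in females and 2.85% in males. The 3 were the main circles of the 3 called genes. The log2 fold changes were 0.98 (SE 0.23, adjusted p = 0.0035) for LOC109428485, -1.58 (SE 0.38, adjusted p = 0.0035) for LOC109411550 and -1.58 (SE 0.42, adjusted p = 0.0073) for LOC109432219. None of the female calls was left without male replicate 2, and none of the male calls without male replicate 1. The sexes did not overlap for 9 of the 34, 4 with females above and 5 with males above, against 27.0% of all circRNAs tested. A change in which circle a gene makes could be tested in 75 host genes with edgeR's splicing test, and 0 passed (0.0%, with 5 at an unadjusted p under 0.05). The 3 transporters among them, LOC109421643, LOC109426928 and LOC115256489, had unadjusted Simes values of 0.64, 0.93 and 0.86 in that edgeR fit.

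Transporter circRNAs were mostly exonic. Exon-exon junctions made up 306 of the 319 (95.9%), against 87.1% of the circRNAs of other host genes. The median spliced length was 713.5 bases (314 with a length), against 646 bases in other host genes. The median span on the contig was 1301 bases, against 1278. A start codon lay in 6 transporter circRNAs and in 77 of the 7869 others. The number of circRNAs per gene was 1.92, against 1.97 in other host genes, and 97 of the 166 genes (58.4%) gave 1 circRNA, against 59.6%. Transporter circRNAs found in all 6 libraries numbered 41 (12.9%, against 10.2%).

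Where a transporter gene made several circles, they often used common splice sites. Of the 69 genes with 2 or more, 51 had circRNAs that shared an acceptor or a donor site, and the most abundant circle held a median of 66.7% of the reads. The transporter genes had a median of 69102 bases between the ends given in the table. The most abundant circle began at a median of 65.1% of the way from the 5′ end. Shared sites, gene length and position were not compared with other host genes. The alpha subunit gene LOC109621302 gave 12 circRNAs, the most of any transporter. Its leading circle, of 579 bases, had 20 reads in females and 19 in males. The alpha-like gene LOC115269307 gave 8, and its leading circle was one of 390 bases with 20 reads in females and 12 in males. Several circles of the alpha pair came close in length, at 579 bases for LOC109621302 and 575 for LOC115269307, and at 2174 for LOC109621302 and 2166 for LOC115269307. A 348-base span was found in both, labelled exon-exon in LOC109621302 and intron-intron in LOC115269307.

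**Figure D5:**
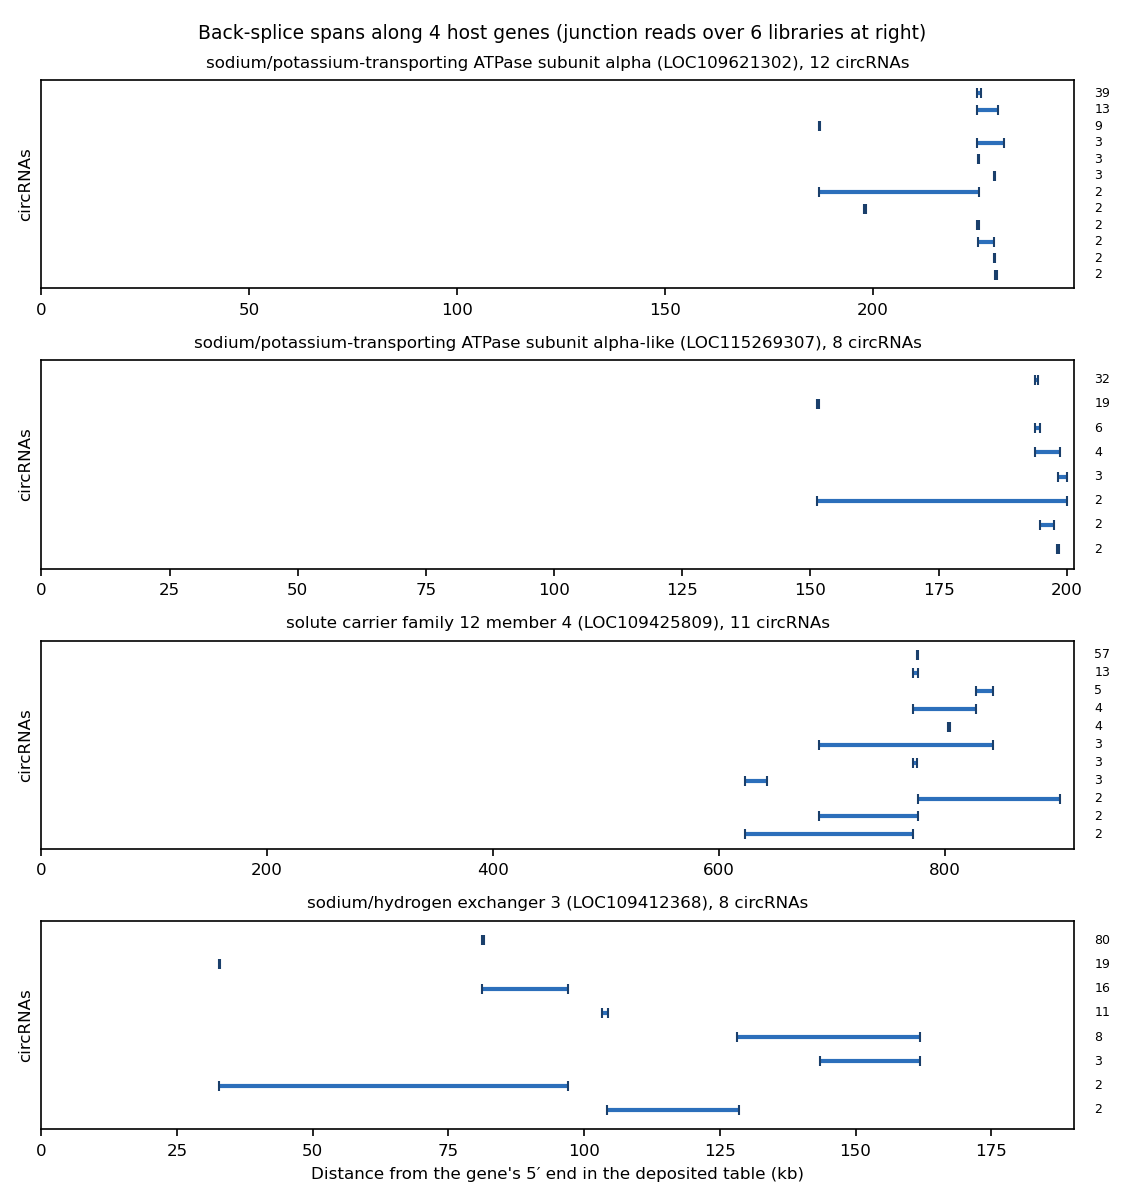
Back-splice spans (blue bars) of 4 transporter host genes as distance from the 5′ end of the gene in the deposited table (kb), ordered by junction reads over 6 libraries, which stand at the right. In LOC109621302, LOC115269307 and LOC109425809 the leading circle lies 84.8 to 96.3% of the way along the gene, and in LOC109412368 at 42.6%.

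Circles of equal length were found at different genes of one name. Among transporters, 39 pairs of circRNAs from different genes of the same product name had exactly the same spliced length. They involved 47 genes and 60 circRNAs and these circRNAs held 41.3% of the transporter reads. The genes of 26 pairs lie on 1 contig, and 7 pairs also had the same span. Of all pairs of circRNAs between such genes, 39 of 918 (4.25%) matched in length, against 597 of 7131 (8.37%) in other host genes. Counted per circRNA, 60 of the 312 considered (19.2%) lay in such a pair, against 1044 of 5859 (17.8%) in other host genes. The pair rate alone thus does not set transporters apart. Both genes of a pair were listed in the RefSeq gene table of the AalbF5 assembly in 2 pairs, and only one of them in 28 pairs. Both circRNAs were tested in 5 pairs, and of these only the Tret1 pair had ratios that did not overlap between the sexes. For that pair this restates the levels of its circles, each of which did not overlap, in opposite directions. For the nutrient amino acid transporter pair, the ratio of LOC109406368 over LOC115258273 was 0.771, 0.674 and 0.600 in females and 0.697, 1.80 and 1.40 in males.

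Host genes with the most similar pattern over the 6 libraries were listed for the 3 called transporters by Pearson's r of log2 CPM among the host genes tested. For LOC109428485 the closest was a TRPL translocation defect protein 14 gene (LOC109408212, r = 0.985). For LOC109411550 it was a nitric oxide synthase-like gene (LOC109416795, r = 0.985). For LOC109432219 the closest were a lissencephaly-1 homolog (LOC109405798, r = 0.994) and the diuretic hormone receptor LOC109419645 (r = 0.979). These are the highest of many values over only 6 libraries and are given as a description.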

How the data were processed

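Ribosomal RNA was removed from whole-body total RNA and linear RNA was digested with RNase R before directional library preparation and paired-end sequencing, per the labels' protocols. Bowtie2 2.1.0 is named in the submitters' processing notes. The circRNA caller is not given in the sources used here, nor is the genome build or the annotation. The deposited table of counts gives, for each circRNA and library, the whole number of reads that cross the back-splice junction, without normalisation. Its 30393 lines repeat a circRNA for each protein of its host gene and were collapsed to 8690 circRNAs. Spliced length per circRNA is a score deposited by the authors. The deposited CPM table, TMM-normalised per the file headers, holds 764 circRNAs, 35 of them in transporter genes. Whole reads were recovered from 100% of its values within 0.01 reads, and the count test on them is given with the alternatives. Positions on contigs are those of the table. It was not settled if starts are counted from 0 or from 1.

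Groups and replicate numbers come from the sample titles. Reads were summed per host gene and tested in R 4.3.3 with edgeR 4.0.16, after TMM scaling and filterByExpr (min.count 5, min.total.count 15). The quasi-likelihood F test of sex was used, with p adjusted by the Benjamini-Hochberg method over all host genes and a threshold of 0.05. Single circRNAs were tested alike, and choice among circles with diffSpliceDGE and the Simes test. Classes, pathway and marker lists were made from words in product names. Members and lists were chosen with earlier results of these data known. Named genes were those called, the 4 with the most reads per class, the 5 with the smallest p, the 5 with the most circRNAs and up to 3 per sex with reads in 1 sex only; others were named after their values were seen. Of the 166 IDs, 94 are listed in a RefSeq table of the AalbF5 assembly, used only to count listed IDs; 31 gene models are of low quality. Where a sex had no reads, the fold was computed against 3 reads over its libraries. No molecular identifiers are named, so reads are not taken as independent molecules, and this limit covers the counting error of the 0 only. The count of the other sex was taken as exact, and genes named for reads in 1 sex only differ by that choice. A circRNA was a possible copy if one at a different host gene equalled it in both span and spliced length. Equal-length pairs, merged genes and the totals implied by the CPM table were added after the data were seen. The series design gives the libraries of a sex as biological replicates. On simulated data for the 870 host genes, 20% of 2-fold and 56% of 4-fold changes were recovered, with 6 false calls among 670. DESeq2 1.42.0 was an alternative. Figures were drawn with matplotlib 3.10.9.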

Additional observations from a re-analysis of the deposited data

How the results depend on the processing

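Leaving out 1 library at a time called 7 to 26 of the 870 host genes as higher in females and 5 to 25 as higher in males, against 22 and 20 with all 6 libraries. Among transporter genes it called 0 to 2 as higher in females and 0 to 2 as higher in males, and the same ranges for transporter circRNAs, 0 to 2 in each direction. Of transporter genes higher in females, DESeq2, a minimum count of 10, the replicate block and leaving out possible copies gave 2, and no filter gave 0. DESeq2 gave 1 higher in males. Of transporter circRNAs higher in females, no filter gave 0 and a minimum count of 10 gave 2. Where no count over all host genes or circRNAs stands beside them, these shifts are not read as particular to transporters. Without the filter, 13 host genes were higher in females over all genes, and the median log2 fold change of transporter genes was -0.32, over 166 genes. The median over all host genes without the filter is not given here, so this value is not read as particular to transporters. The counted reads recovered from the CPM table gave 1 transporter circRNA higher in females and 2 in males, and the library totals it implies gave 23 host genes for females and 20 for males. DESeq2's size factors, exon-exon circRNAs only and the other settings left these counts within 1.5 times the values above. The causes were not tested.

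The replicate block called 28 host genes as higher in females and 24 as higher in males, with 2 transporter genes in each direction and a median of -0.21. The median over all host genes with the block is not given here either. With the block, LOC109412368 passed (log2 fold change 1.32, adjusted p = 0.040, edgeR). The deviations of same-numbered libraries correlated at 0.0471, -0.0134 and -0.0130 over 870 genes. Not every library correlated best with its own number. With 3 libraries per sex, these correlations cannot show that pairing or a shared batch is absent. The labels give no pairing, so the main fit left the numbers out.

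None of the genes that changed sign had passed the test. With 1 library left out, the log2 fold change ran from -0.30 to 0.29 for LOC109404843, from -1.48 to 0.65 for LOC109407688, from -0.30 to 0.17 for LOC109424173, from -0.31 to 0.29 for LOC109425852 and from -0.0576 to 1.84 for LOC109429232. It ran from -1.24 to 0.15 for LOC109621302, from -0.35 to 0.51 for LOC115257360, from -1.13 to 0.42 for LOC115258653 and from -0.30 to 0.37 for LOC115259332. Without the filter it was -0.16 for LOC109404843, -0.16 for LOC109407688, -0.10 for LOC109407948 and -0.0889 for LOC115257360. The block gave -0.41 for LOC109407688 and 0.0535 for LOC115259332. A minimum count of 10 gave 0.00463 for LOC109425852 and 0.0387 for LOC115259332. LOC109621302 was at 0.13 without possible copies. LOC115259332 was at 0.0157 with DESeq2's size factors, at 0.0161 in DESeq2 and at 0.0187 with the implied totals. At this depth, 2-fold changes in most host genes would be missed.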

Other observations

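Several transporter genes below the filter had reads spread unevenly over the libraries. They were not tested and were chosen after their values were seen. The solute carrier organic anion transporter family member 74D gene LOC109622884, whose Drosophila counterpart imports the hormone ecdysone into cells, had 1, 0 and 1 reads in the female libraries and 4, 16 and 4 in the male libraries. The sodium-dependent phosphate transporter 2-like gene LOC109398795 had 13, 5 and 1 reads in females and 1, 1 and 2 in males. The glucose transporter type 1 gene LOC109424279, a facilitative glucose carrier, had 10, 0 and 2 reads in females and 5, 10 and 4 in males. The solute carrier family 26 member 6-like gene LOC109416899, an anion exchanger, had 4, 4 and 3 reads in females and 1, 14 and 12 in males.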
